A study of Mus musculus with 4 samples.

Results

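The ribosomal protein genes were taken as all genes whose symbols start with Rpl or Rps followed by a number, together with *Rplp0*, *Rplp1*, *Rplp2* and *Rpsa*, without pseudogene symbols, the S6 kinase genes and Gm genes. This rule selected 87 of the 27998 genes listed in the counts. Of these, 77 encode core proteins of the cytosolic ribosome, 46 of the large and 31 of the small subunit. The other 10 are paralogs of core genes, retrogenes or, in *Rps19bp1*, the gene of a protein that binds a ribosomal protein. The symbol rule used no measured value.

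Each ribosome holds a small subunit, which reads the mRNA, and a large subunit, which joins amino acids, and nearly every core protein is present once per ribosome. Most mRNAs of ribosomal proteins begin with a run of pyrimidines, the terminal oligopyrimidine tract, through which their translation is tied to nutrient signalling by mTORC1. An mRNA level is therefore not a rate of protein production. Muscle stem cells (MuSC, satellite cells) keep protein synthesis low while quiescent, and raise it when they are activated to divide and fuse.

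The cells were sorted as ITGA7+/VCAM1+/Lin- from hindlimb muscle, where the lineage panel removed cells with Cd11b, Sca1, Cd45 or Cd31, and 2 mice were pooled per strain into 1 library of 10X Genomics 3′ single-cell RNA sequencing. B10 (C57BL/10ScSn, 15 weeks) is the healthy control of *mdx* (C57BL/10ScSn-Dmdmdx, 11 weeks), and DBA (DBA/2, 13 weeks) is the healthy control of D2-*mdx* (D2.B10-Dmdmdx, 14 weeks). The *mdx* and D2-*mdx* mice carry the same nonsense mutation of *Dmd* in every cell, so the whole muscle around the satellite cells is dystrophic as well. Age differed together with strain, and the effects of both cannot be told apart. With 1 library per group no test was run. Intervals in parentheses are exact 95% intervals for counting error alone and leave out how mice differ. Where a myogenic state is set against MuSC-like cells, parentheses after a log2 ratio instead give the range over the libraries.

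In the myogenic cells *Dmd* was at 324.4 CPM (UMIs scaled to a library total of 1000000) in B10 against 119.3 in *mdx*, and 287.3 in DBA against 93.98 in D2-*mdx*, the order that the labels give. *Pax7*, the transcription factor that defines satellite cells, was at 906.9, 423.7, 695.1 and 425.2 CPM in the same order of libraries. *Myog*, which marks differentiation, was at 9.33, 316.7, 17.65 and 261.5 CPM, so the dystrophic libraries held many more differentiating cells. *Hbb-bs*, a haemoglobin gene that reports RNA of red blood cells, was highest in D2-*mdx*, at 589 CPM against 157 to 245 CPM in the others. After filtering, 4581, 6313, 3279 and 5756 cells were kept with median depths of 8466, 7021, 10434 and 6666 UMIs, of which 4416, 4808, 2701 and 4166 were myogenic. Of the 9931, 7173, 3539 and 6782 barcodes deposited for B10, *mdx*, DBA and D2-*mdx*, 4762, 6669, 3370 and 6049 lay within the limits on genes and mitochondrial UMIs. B10 thus lost a far larger part of its barcodes than the others. Pairs of libraries shared 5 to 16 cell barcodes, and in no library did the level of *Dmd* go against the label.

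For 4 members reads were divided with near-identical copies in a way that differed between the backgrounds, and these are described first. The reference genome holds many retrotransposed copies of ribosomal protein genes. By sequence, 45 genes that match a core gene, called copies here, were found for 28 core genes. Not all are retrotransposed: *Flt3l*, matched to *Rpl13a*, spans the start of *Rpl13a* on chromosome 7. *Wdr89*, matched to *Rplp2*, is annotated as protein coding, a label that does not tell whether the matching sequence was retrotransposed. Of the 45 copies, 4 took a far larger part of the reads in the libraries of one background. *Rpl29* (ENSMUSG00000048758, chromosome 9, 106429454 to 106431568 on GRCm38, plus strand) encodes a large subunit protein also known for binding heparin. It was at 1560.4 CPM in B10 and 2051 in *mdx*, but only at 198.5 CPM in DBA and 138 in D2-*mdx*. Its copy *Gm10709* (chromosome 9, 7751725 to 7752204, plus strand, annotated as a processed pseudogene) was at 3.28 and 1.84 CPM in B10 and *mdx*, and at 1261 and 1054 CPM in DBA and D2-*mdx*. In the DBA background, then, most reads of this gene stood on the copy, and in the C57 background nearly none did.

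*Rps18* (ENSMUSG00000008668, chromosome 17, 33951999 to 33956001, minus strand), a protein of the head of the small subunit, and *Rplp0* (ENSMUSG00000067274, chromosome 5, 115559467 to 115563727, plus strand), which anchors the acidic stalk that recruits elongation factors, showed the same pattern in part. *Gm10260* (chromosome 13, 97760072 to 97760632, minus strand, annotated as protein coding) took 0.0479% of the joint UMIs with *Rps18* in B10 and 0.0385% in *mdx*. In DBA it took 15.9% (15.7 to 16.2) and in D2-*mdx* 24.1% (23.8 to 24.4). *Gm8730* (chromosome 8, 102864845 to 102865798, minus strand, processed pseudogene) took 1.78% of the joint UMIs with *Rplp0* in B10 against 2.37% in *mdx*, and 29.9% (29.6 to 30.1) in DBA against 39.5% (39.2 to 39.7) in D2-*mdx*. Both copies were thus high in the same pair of libraries as *Gm10709*, and for both the share was larger in D2-*mdx* than in DBA, beyond counting error.

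The copies differ from their genes at few positions. Along the main transcript, *Gm10709* matched 480 bases of *Rpl29* with 4 mismatches, *Gm10260* 545 bases of *Rps18* with 5 and *Gm8730* 954 bases of *Rplp0* with 12. The windows below show the mismatch nearest to the 3′ end, the end that this assay reads, from the gene and from its copy in GENCODE M21 transcripts. The base that differs is in capitals, and positions count from 1 at the 5′ end of the gene's main transcript: G498A for *Rpl29*, G534C for *Rps18* and A905G for *Rplp0*, which lie 85, 26 and 453 bases from the 3′ end.
Rpl29: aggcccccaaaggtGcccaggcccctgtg
Gm10709: aggcccccaaaggtAcccaggcccctgtg
Rps18: tctgggcctttgctGttaataaatagttt
Gm10260: tctgggcctttgctCttaataaatagttt
Rplp0: acaccttcccacttActgaaaaggtcaag
Gm8730: acaccttcccacttGctgaaaaggtcaag

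Few bases therefore separate a read of the gene from a read of the copy, though a read may cover more than 1 of them. The next mismatch lies 119 bases from the 3′ end for *Rpl29* and 72 for *Rps18*. The reference sequence comes from C57BL/6J, and the DBA/2 sequence of these genes was not analysed here, so whether the reads came from the copies or from variants of the genes was not tested. The match of *Gm10709* ended 62 bases before the 3′ end of *Rpl29* and that of *Gm8730* 283 bases before the 3′ end of *Rplp0*, whereas that of *Gm10260* ran to 1 base before the end of *Rps18*.

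**Figure D1:**
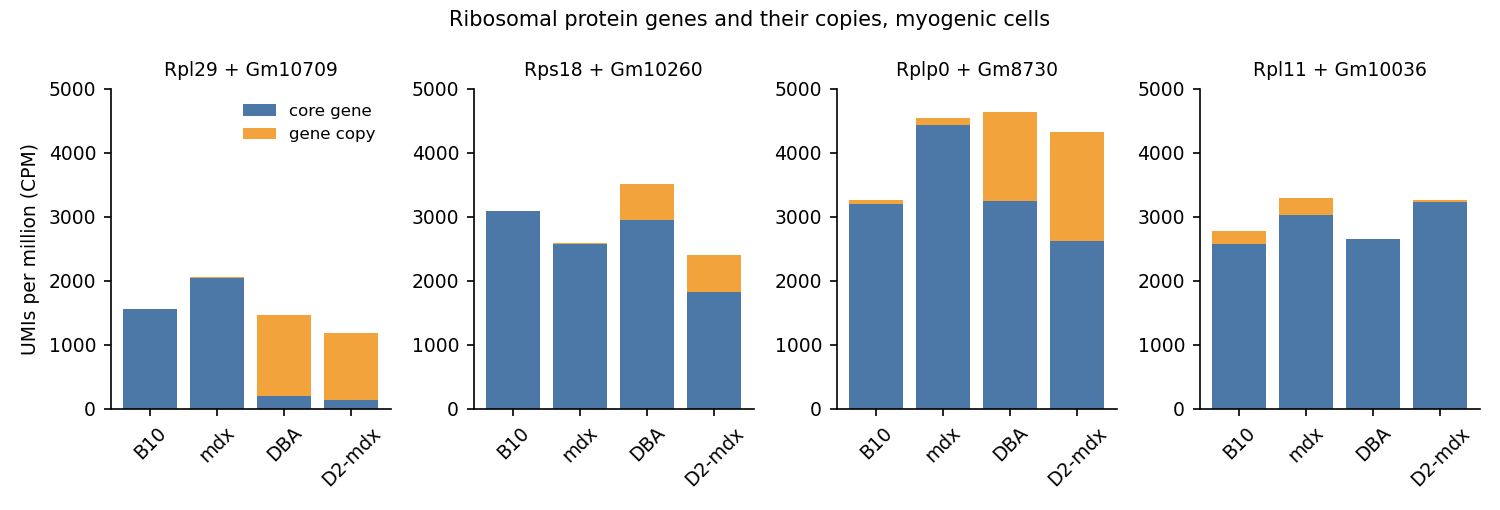
Stacked bars give the CPM of each gene (blue) and of its copy (orange) in the myogenic cells of the 4 libraries, 1 panel per pair, with the axis from 0 to 5000. *Gm10709* makes up most of its bar in DBA and D2-*mdx*, and *Gm10260* and *Gm8730* part of theirs, whereas *Gm10036* is visible in B10 and *mdx*.

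The copy shares were nearly constant over cell types. For *Gm10709* in DBA they were 86.4% in myogenic, 86.8% in pericyte-like and 83.8% (79.4 to 87.6) in glial-like cells, and in D2-*mdx* 88.4%, 88.0% and 88.0%. The *Gm8730* share in D2-*mdx* was 39.5%, 39.3% and 39.4% in the same cell types, and 40.3% (37.8 to 42.9) in endothelial-like cells. Across 9 myogenic states it ranged from 38.9% to 40.7% in D2-*mdx* and from 27.1% to 30.4% in DBA. *Gm10260* ranged from 22.9% to 24.8% across the states in D2-*mdx* and from 15.8% to 18.01% in DBA. The shares thus followed the library and not the cell type or state, and the ranges of DBA and D2-*mdx* did not overlap for *Gm8730* and *Gm10260*.

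**Figure D2:**
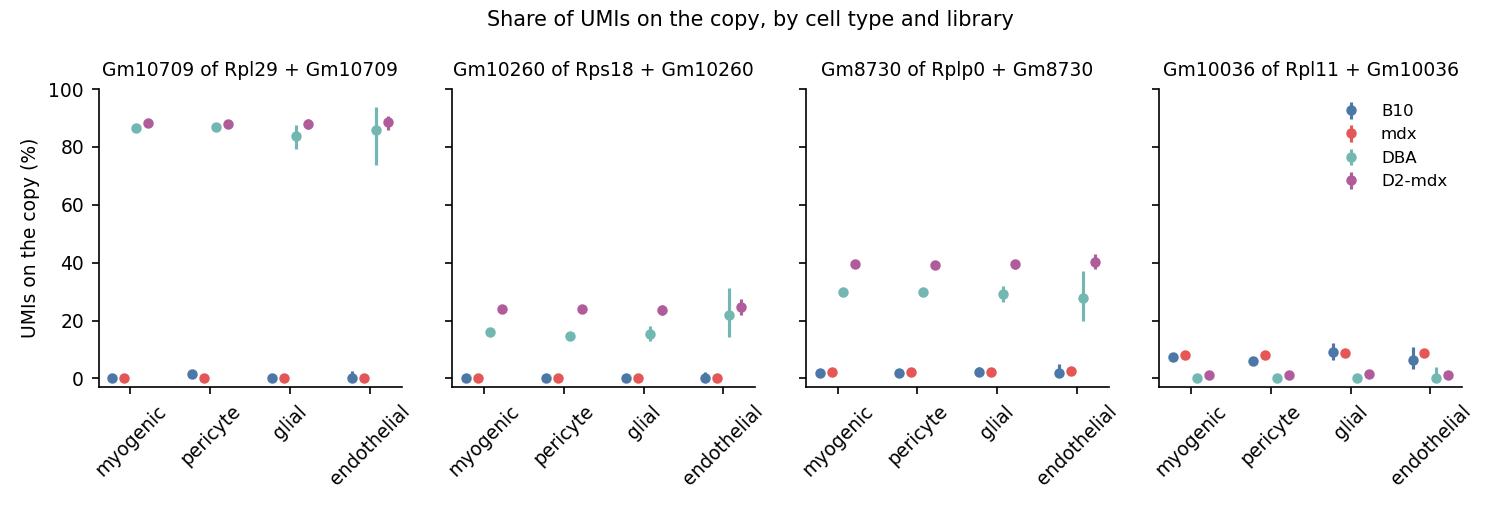
Points give the share of UMIs on the copy, in % of the UMIs on gene and copy together, for 4 cell types in each library, with exact 95% binomial intervals as bars where they exceed the point. Within a library the points lie at nearly the same height in every cell type, and those of DBA rest on only 8 endothelial-like cells.

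*Rpl11* (ENSMUSG00000059291, chromosome 4, 136028265 to 136053428, minus strand) forms the 5S particle with *Rpl5* and binds Mdm2 when ribosome assembly is disturbed. Its copy ran the other way: *Gm10036* (chromosome 18, 15832794 to 15833327, plus strand, processed pseudogene) took 7.41% (7.26 to 7.56) of the joint UMIs in B10 and 8.10% (7.95 to 8.25) in *mdx*, but 0.254% in DBA and 1.11% in D2-*mdx*. It matched 534 bases with 4 mismatches. For this gene the reads on the copy belonged to the C57 background, and D2-*mdx* lay above DBA.

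Adding all copies of a gene to it changed the comparison of backgrounds for these genes and little else. *Rpl29* then stood at 1566, 2056, 1462 and 1196 CPM in B10, *mdx*, DBA and D2-*mdx*, and its log2 ratio of DBA over B10 went from -2.97 to -0.10 and that of D2-*mdx* over *mdx* from -3.89 to -0.78. *Rps18* went from -0.50 to -0.06 and *Rplp0* from -0.76 to -0.07 in D2-*mdx* over *mdx*, and *Rpl11* from 0.09 to -0.02. In DBA over B10 *Rps18* turned from -0.07 to 0.21, *Rpl11* from 0.04 to -0.06, and *Rplp0* went from 0.02 to 0.51. For these genes the ratio between backgrounds thus depended on whether the copies were counted, a limit that holds for every later value of theirs. Within a background less moved: D2-*mdx* over DBA went from -0.52 to -0.29 for *Rpl29*, from -0.69 to -0.53 for *Rps18* and from -0.31 to -0.10 for *Rplp0*.

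Core ribosomal protein genes took about 1 in 4 UMIs of the myogenic cells in every library. Their share was 24.44% (24.43 to 24.45) in B10 against 26.14% (26.12 to 26.15) in *mdx*, and 25.65% (25.64 to 25.67) in DBA against 25.70% (25.69 to 25.72) in D2-*mdx*. B10 was the lowest and *mdx* the highest, and DBA and D2-*mdx* differed by 0.0028 (0.0014 to 0.0042) on the log2 scale. The large subunit took 13.80%, 14.65%, 14.32% and 14.30% and the small subunit 10.64%, 11.49%, 11.33% and 11.41% in the same order. Both subunits kept the order of B10 as the lowest and *mdx* as the highest. These shares leave out UMIs on the copies. *Gm10709* and *Gm8730* were at 1261 and 1387 CPM in DBA and at 1054 and 1707 CPM in D2-*mdx*. In B10 they were at 3.28 and 58.2 CPM and in *mdx* at 1.84 and 107.4 CPM, whereas *Gm10036* was higher in B10 and *mdx*. Differences of the share between backgrounds thus depend on whether copies are counted. Among cells the spread was far wider than among libraries: from the 5th to the 95th percentile the share per cell ran from 15.1% to 31.7% in B10, from 16.7% to 33.7% in *mdx*, from 18.6% to 32.8% in DBA and from 17.5% to 32.9% in D2-*mdx*.

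The share was higher in deeper cells of B10 and *mdx*, whereas DBA could be read only from 8000 UMIs up. Among MuSC-like cells of B10 it was 19.82% in the 297 cells with 3000 to 5000 UMIs, 23.42% between 5000 and 8000, 24.67% between 8000 and 12000 and 25.87% between 12000 and 20000. In *mdx* the same bins held 23.71%, 24.82%, 26.28% and 26.50%. In D2-*mdx* they held 24.41%, 24.58%, 25.12% and, in only 39 cells, 23.32%. DBA held 25.56% between 8000 and 12000 UMIs and 25.51% between 12000 and 20000. It had no MuSC-like cells between 3000 and 8000 UMIs, where D2-*mdx* had 871 below 5000 and 1460 above. Ratios of D2-*mdx* over DBA were thus not taken at equal depth. B10 was below *mdx* in each bin, and by most in the shallowest. Over all myogenic cells, other groups of UMIs ran against the share. The 14 immediate-early genes, which respond to tissue dissociation, took 4.03% of UMIs in B10 and 3.11% to 3.29% in the others, and the 13 genes encoded in mitochondria took 4.14% in B10 and 3.26% to 3.77% in the others. Among MuSC-like cells alone the immediate-early genes took 4.14% in B10 against 4.93% in *mdx*, and 3.46% in DBA against 5.16% in D2-*mdx*. There they were higher in both dystrophic libraries. Of these genes 0 of 14 and 0 of 13 were at least 25% higher in *mdx* than in B10 and 6 and 7 lower, and in D2-*mdx* over DBA 5 and 0 were higher and 4 and 4 lower. Of all genes 22.4% were higher and 27.8% lower in the first comparison, and 24.9% and 32.6% in the second. Their part in the difference was not tested.

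Outside the myogenic cells the share was lower. As a mean over libraries, the core genes took 25.48% of UMIs in myogenic cells, 18.93% in white blood cell-like, 14.69% in glial-like, 13.65% in fibroblast or tenocyte-like, 13.29% in endothelial-like, 13.04% in pericyte-like, 10.62% in Schwann-like and 8.54% in vascular smooth muscle-like cells. The lowest myogenic library, at 24.44%, lay above the highest value of any other type, 20.80% in the 18 white blood cell-like cells of DBA. Pericyte-like cells, the largest other group, held 11.42% in B10 against 13.76% in *mdx*, and 11.90% in DBA against 15.07% in D2-*mdx*, so that both dystrophic libraries lay above their controls. Some of these values rest on few cells, down to 1 white blood cell-like cell in B10.

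Myogenic states were rebuilt with the ribosomal protein genes left out of the clustering, and their names mean that a cluster resembles a state by its markers. With the resolution of the study, the share was highest in differentiating myocyte-like cells, at 25.56% in B10 against 27.39% in *mdx*, and 27.17% in DBA against 26.86% in D2-*mdx*. MuSC-like cells held 24.36%, 24.92%, 25.57% and 24.59%, below the differentiating cells in each of the 4 libraries. Cycling progenitor-like cells held 24.55%, 26.43%, 25.53% and 26.55%, above MuSC-like cells in 3 libraries, with DBA at 25.53% against 25.57%. This cluster joined cycling cells with cells led by *Esm1*, which the finer clustering below separates. The differentiating myocyte-like cluster likewise joined differentiating with DMD-enriched-like cells, which the study kept apart. In the finer clustering *mdx* and D2-*mdx* have 948 and 525 DMD-enriched-like cells, against 290 and 271 differentiating ones. Immunomyoblast-like cells, which express interferon-induced genes, held 24.0002%, 25.32%, 23.29% and 24.19%, with 17 cells in DBA. Depth differed between these states, with medians of 5512.5 to 10135 UMIs in MuSC-like and 10532 to 13966.5 in differentiating cells.

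**Figure D3:**
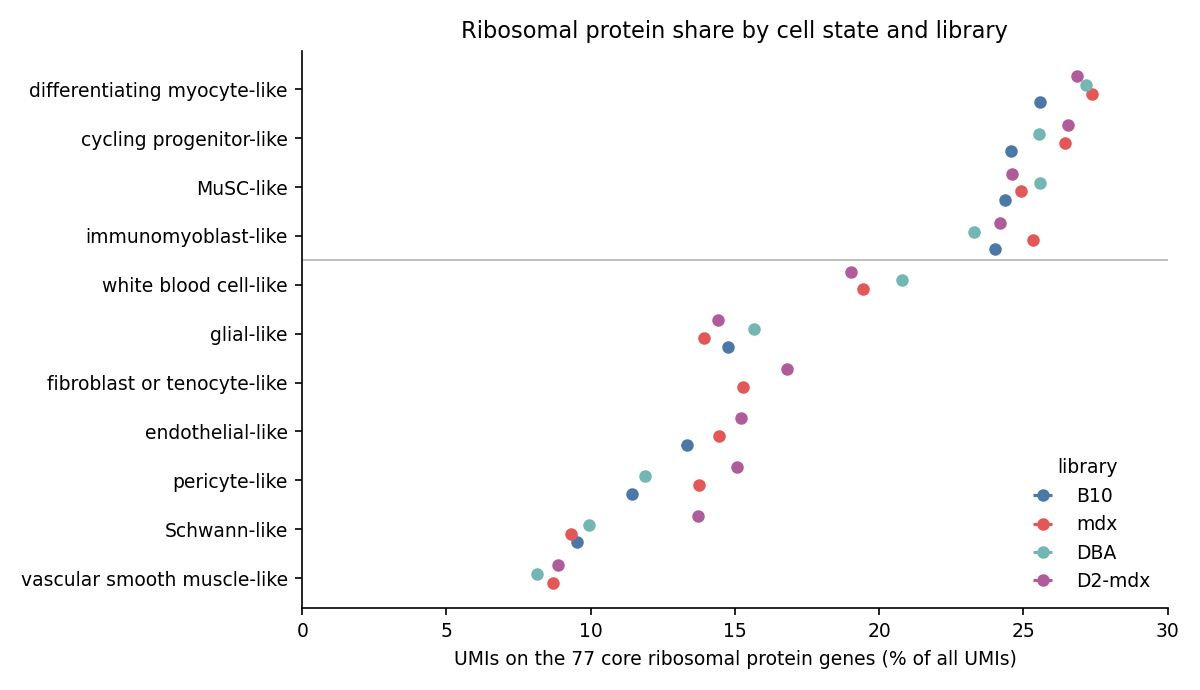
Points give the share of UMIs on the 77 core genes in % of all UMIs, for 4 myogenic states at the coarser clustering (above the line) and 7 other cell types in each library, where at least 10 cells were present. The myogenic states lie between 23.29% and 27.39%, to the right of every other cell type. The differentiating myocyte-like points also hold DMD-enriched-like cells.

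A finer clustering, chosen after the coarser one was seen to join distinct states, separated DMD-enriched-like cells led by *Postn* and *Mgp* from the differentiating cells, and the *Esm1*-led cells from the cycling ones. Cycling cells then held 22.13% in the 22 cells of B10, 26.48% in the 176 of *mdx*, 24.78% in the 38 of DBA and 25.87% in the 368 of D2-*mdx*, with a mean of 24.82%, close to the 24.86% of MuSC-like cells. They were above MuSC-like cells in both dystrophic libraries and below them in both healthy ones. The *Esm1*-led cells held 24.75%, 26.28%, 25.68% and 27.90%. The DMD-enriched-like cells held 27.18% in the 948 cells of *mdx* and 27.00% in the 525 of D2-*mdx*, against 22.38% and 25.44% in the 15 and 18 such cells of B10 and DBA. Differentiating cells led by *Actc1* and *Myog* then held 25.79%, 27.89%, 28.20% and 27.31%. In this state 62 of the 77 core genes were above MuSC-like cells in all 4 libraries and 3 were below in all 4, with a median log2 ratio of 0.14 over the genes. Cells led by *Hhip* and *Dlk1* lay at the other end, with 23.18%, 24.57%, 23.63% and 23.27%, and 39 of the 77 genes below MuSC-like cells in all 4 libraries. That cluster is in part contained in the MuSC-like cells it is set against. The share of all genes above or below MuSC-like cells was not counted, so these counts may not be particular to the core genes.

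Comparing *mdx* with B10 asks how the disease changes satellite cells on the C57 background. The 77 core genes together were 1.07-fold higher, a log2 ratio of 0.097 (0.096 to 0.098), and their median log2 ratio was 0.10 against -0.03 over all 8474 genes with at least 10 CPM in either library. A gene is called higher here where its CPM was at least 25% above that of the control, and lower where it was at least 20% below, which is the same fold. Of the core genes 14 were higher, where 22.4% of all genes were, and 7 lower, where 27.8% of all genes were. Core genes called past that fold were thus 18.2% and 9.09% of the list. Of the 140 other genes with a mean of at least 500 CPM, the level at which all core genes lay, 34.3% were higher and 28.6% lower. Among MuSC-like cells alone 4 were higher, where 13.8% of all genes were, and 12 lower, where 25.5% were, with a median of 0.07. In these sums, fewer cells with a transcript and less of it per cell cannot be told apart.

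Comparing D2-*mdx* with DBA asks the same question on the background with the severer disease. The summed log2 ratio was 0.0028 (0.0014 to 0.0042), and the median was -0.02 against -0.07 over 8508 genes. The library sizes of TMM and the size factors of DESeq2 turned this median to 0.03 and 0.06. Here 4 core genes were higher, where 24.9% of all genes were, and 14 lower, where 32.6% of all genes were. Among MuSC-like cells 2 were higher, where 16.5% of all genes were, and 17 lower, where 28.1% were. The scaling decided much of the split: TMM gave 20 higher and 3 lower in *mdx* over B10 and 11 and 12 in D2-*mdx* over DBA, and DESeq2 gave 21 and 3, and 17 and 11. Of all genes TMM called 26.2% higher and 24.2% lower in the first comparison and 28% and 29.4% in the second, and DESeq2 26.4% and 24.1%, and 29.8% and 27.5%. The share of core genes called higher in *mdx* over B10, 26% with TMM and 27.3% with DESeq2, was then near that of all genes. Taken by state, the summed log2 ratio ran from 0.02 to 0.28 over 9 states in *mdx* over B10 and from -0.07 to 0.12 in D2-*mdx* over DBA, with the highest value in the first comparison resting on 15 B10 cells. Over all sorted cells of any type the summed ratio of *mdx* over B10 turned to -0.037, where 4808 of 6313 cells of *mdx* were myogenic against 4416 of 4581 in B10.

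Single genes mostly had the same sign in both comparisons, which share no library. Of the 77 core genes 35 were above 0 in both, 30 below 0 in both and 12 had opposite signs, with a Spearman correlation of 0.71 over the genes, given as a description because all genes come from the same 4 libraries. The split of signs over all genes was not counted. Called in both, 3 genes were higher and 5 lower, or 3.9% and 6.49% of them, where 17.3% and 22% of the 8159 genes with enough UMIs in both comparisons were. By subunit, without a test of the difference, in *mdx* over B10 6 of 46 large and 8 of 31 small subunit genes were higher and 4 and 3 lower, and in D2-*mdx* over DBA 1 and 3 were higher and 8 and 6 lower. Those higher in the first comparison were 13.0% of large and 25.8% of small subunit genes, against 22.4% of all genes. Of all genes 27.8% were lower there, and in D2-*mdx* over DBA 24.9% were higher and 32.6% lower.

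*Rpl41* (chromosome 10, 128548114 to 128549305, minus strand), which encodes the shortest ribosomal protein, was at 3383 CPM in B10 against 5402 in *mdx*, and 3495 in DBA against 5473 in D2-*mdx*. Both dystrophic libraries were above both healthy ones, by log2 ratios of 0.68 (0.67 to 0.69) and 0.65 (0.64 to 0.66). Among MuSC-like cells alone these were 0.25 and 0.22, so the difference was smaller within this state. *Rps20* (chromosome 4, 3831334 to 3835665, minus strand), a protein of the head of the small subunit, was at 3386, 4909, 3541 and 4953 CPM, with log2 ratios of 0.54 and 0.48, and of 0.39 and 0.33 among MuSC-like cells. Both genes were high in *mdx* and D2-*mdx* on either background.

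At the other end, *Rpl4* (chromosome 9, 64173375 to 64178666, plus strand), whose product lines the tunnel through which new peptides leave, was at 1534 CPM in B10 against 982.1 in *mdx*, and 1529.8 in DBA against 1137 in D2-*mdx*. The log2 ratios were -0.64 (-0.66 to -0.63) and -0.43 (-0.45 to -0.41), and -0.80 in *mdx* over B10 among MuSC-like cells. *Rps27* (chromosome 3, 90212522 to 90213651, minus strand), a zinc finger protein of the small subunit, was at 3069.6, 2116, 2993 and 2081 CPM, with -0.54 and -0.52. *Rps28* (chromosome 17, 33819027 to 33824562, minus strand), of the small subunit head, was at 2939.6, 2273, 2710.2 and 1864 CPM, with -0.37 and -0.54. *Rpl27* (chromosome 11, 101442298 to 101445529, plus strand) was at 1075, 847.6, 1144 and 776.5 CPM, with -0.34 and -0.56. With its copy added the first ratio was -0.319, and *Rpl27* was no longer called lower in *mdx* over B10. *Rpl31* (chromosome 1, 39367842 to 39371911, plus strand), near the exit of the peptide tunnel, was at 1505, 1204, 1615 and 1251 CPM, with -0.32 and -0.37. All 5 were low in both dystrophic libraries, whichever background they came from.

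**Figure D4:**
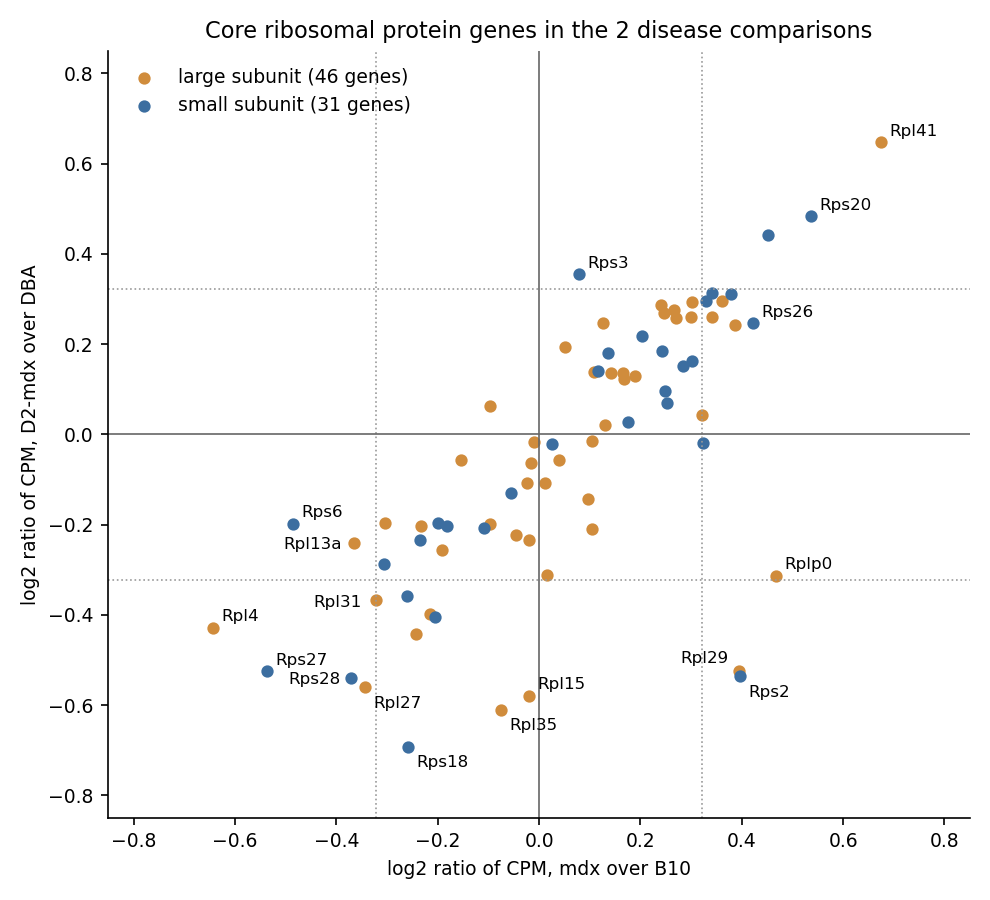
Each point is 1 of the 77 core genes, with its log2 ratio of CPM in *mdx* over B10 on the horizontal and in D2-*mdx* over DBA on the vertical axis, and dotted lines mark the fold past which a gene is called. *Rpl41* and *Rps20* lie at the upper right, *Rpl4* and *Rps27* at the lower left, and *Rplp0*, *Rpl29* and *Rps2* at the lower right.

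Proteins that work together did not move as 1 unit. Of the acidic stalk, *Rplp1* was at 4516, 4484, 4596 and 4546 CPM and *Rplp2* at 3259, 3205, 3399 and 3151 CPM in B10, *mdx*, DBA and D2-*mdx*, nearly level across libraries. *Rpl12*, at the base of the stalk, was at 3171, 2697, 3358 and 2918 CPM, lower in both dystrophic libraries, with -0.23 and -0.20. *Rplp0* was at 3204, 4432, 3255 and 2619 CPM, high in *mdx* alone before its copies were added. In the 5S particle *Rpl5* was at 2609, 2113, 2476 and 2162 CPM, with -0.30 and -0.20, and *Rpl11* at 2569, 3035, 2649 and 3229 CPM, with 0.24 and 0.29. The members of this pair thus had opposite signs in both comparisons.

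Other genes stood out in 1 comparison. *Rps26*, which lines the exit channel of the mRNA, was at 2609, 3498, 2804 and 3327 CPM, with 0.42 in *mdx* over B10 and 0.25 in D2-*mdx* over DBA. *Rps6*, the substrate of the S6 kinases, was at 2120.4, 1514, 1930.2 and 1683 CPM, with -0.49 and -0.20. In MuSC-like cells alone it was at 2093, 1374, 1888 and 1500 CPM, there past the fold in both comparisons. *Rpl13a*, which also serves in the translational silencing of inflammatory mRNAs, had -0.36 and -0.24. All 3 kept their sign in the DBA background, at a smaller size. In D2-*mdx* over DBA, *Rps3*, at the entry channel of the mRNA, was at 3162 against 2472 CPM (0.36), and *Rps18* had -0.69. *Rps10*, of the small subunit head, was at 4181 against 3365 CPM (0.31) there and at 4046 against 3191 CPM (0.34) in *mdx* over B10, a like ratio in both, of which only the second passed the fold. *Rps18* has the limit given above for its copies. *Rpl35* stood at 1903, 1806, 2361 and 1547 CPM and *Rpl15* at 1241, 1223, 1499 and 1003 CPM. For both, DBA was the highest library and D2-*mdx* the lowest, with B10 and *mdx* close to each other over all myogenic cells. In MuSC-like cells alone *mdx* lay below B10, at 1020 against 1218 CPM for *Rpl15* and 1575 against 1881 CPM for *Rpl35*.

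Starts of transcription are shown for members at the ends of these lists, because the pyrimidine tract of their mRNAs begins there. The table of promoters held 57 of the 77 core genes (74.0%), under the 80% set as a minimum, so shares of genes with a tract are not given and the comparison with all promoters is void. Each line gives 15 bases before and 15 from the start in RefSeq on GRCm38.p6, on the minus strand except *Rpl4*. Capitals mark a run of at least 5 C and T bases that begins with C within 10 bases of the start. The windows are chr3:90213634-90213663 for *Rps27*, chr4:86857353-86857382 for *Rps6*, chr14:18270972-18271001 for *Rpl15*, chr2:39005117-39005146 for *Rpl35*, chr9:64173372-64173401 for *Rpl4*, chr10:128626492-128626521 for *Rps26* and chr10:128549154-128549183 for *Rpl41*. *Rps26* and *Rpl41* were high in *mdx*, and the others were low in one or both dystrophic libraries.
Rps27: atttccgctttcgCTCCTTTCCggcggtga
Rps6: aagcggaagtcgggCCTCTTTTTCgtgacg
Rpl15: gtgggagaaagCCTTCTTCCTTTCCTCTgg
Rpl35: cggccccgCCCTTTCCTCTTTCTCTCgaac
Rpl4: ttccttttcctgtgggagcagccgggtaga
Rps26: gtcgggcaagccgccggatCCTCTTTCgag
Rpl41: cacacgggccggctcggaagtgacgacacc

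The runs were 9 bases long in *Rps27*, 10 in *Rps6*, 17 in *Rpl15*, 18 in *Rpl35* and 8 in *Rps26*. The windows of *Rpl41*, *Rpl4*, *Rps28* and *Rpl27* held no run of at least 5 bases that begins with C within 10 bases of the start. The window of *Rpl4* does hold a run of C and T further before the start, outside that limit. For *Rpl4*, *Rpl41* and *Rpl27* the start used for the window differs from the gene boundary given above. An absent run there describes the start chosen, and whether these mRNAs carry a tract was not tested. Windows with and without a run inside that limit occurred at both ends of the lists, which says nothing of the tracts of these genes. Over the 77 core genes, the log2 ratio of *mdx* over B10 had a Spearman correlation of 0.42 with the mean CPM of the gene, 0.18 with transcript length and 0.12 with GC content, and that of D2-*mdx* over DBA 0.39, 0.22 and -0.09. These are descriptions over genes that share the same libraries. More abundant members tended to lie higher in both comparisons, whereas length and GC content varied little with the ratios. Counted at the 3′ end and not divided by length, *Rpl23* (5323, 5969.7, 5291 and 5809 CPM) and *Rpl13* (5380.5, 5324, 5870.3 and 5617 CPM) were among the members with the most UMIs, and *Rpl27*, *Rpl29* and *Rpl15* had the fewest.

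*Rps2*, and *Rpl29* while its copies were left out, were called in opposite directions in the disease comparisons. *Rps2* (chromosome 17, 24718116 to 24721929, plus strand), a small subunit protein at the entry channel of the mRNA, was at 3602 CPM in B10 against 4739.7 in *mdx*, and 4898 in DBA against 3378 in D2-*mdx*. It was higher in *mdx* than in B10 by 0.40 (0.39 to 0.41) and lower in D2-*mdx* than in DBA by a log2 ratio of -0.54 (-0.55 to -0.53). Adding its 4 copies left these at 0.40 and -0.54. *Rpl29* had 0.39 and -0.52, which became 0.39 and -0.29 with its copies, so that it was no longer called lower in D2-*mdx*. The difference between the comparisons was not tested for either gene.

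Comparing D2-*mdx* with *mdx*, and DBA with B10, sets the backgrounds against each other. The median over the core genes was 0.01 in D2-*mdx* over *mdx* and 0.08 in DBA over B10, against -0.02 over 8175 genes and 0.01 over 8344. In D2-*mdx* over *mdx* 0 core genes were higher, where 11.8% of all genes were, and 5 lower, where 13.7% of all genes were. In DBA over B10 1 core gene was higher, where 10.3% of all genes were, and 2 were lower, where 11.5% of all genes were. The share of core genes called was thus below that of all genes in each direction. In DBA over B10 61 of the 77 were above 0, where the median over all genes was 0.01.

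In D2-*mdx* over *mdx* the lowest were *Rpl29* (-3.89), *Rplp0* (-0.76), *Rps18* (-0.50), *Rps2* (-0.49) and *Rpl21* (-0.39), and the highest *Rpl14* (0.27), *Rpl8* (0.22), *Rpl4* (0.21), *Rpl7a* (0.21) and *Rpl26* (0.19). In DBA over B10 the lowest were *Rpl29* (-2.97), *Rpl13a* (-0.34), *Rpl21* (-0.27), *Rps3* (-0.21) and *Rps6* (-0.14), and the highest *Rps2* (0.44), *Rpsa* (0.31), which is also known as the laminin receptor, *Rpl35* (0.31), *Rps9* (0.29) and *Rpl15* (0.27). *Rpl21*, a large subunit protein, was at 3875 CPM in B10 against 3906 in *mdx*, and 3204 in DBA against 2971 in D2-*mdx*. Both libraries of the DBA background were below both of the C57 background, healthy or dystrophic. *Rpl13a* was at 3761 CPM in B10 against 2921 in *mdx*, and 2965 in DBA against 2510.1 in D2-*mdx*, so that it was lower in DBA and in either dystrophic library than in B10.

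Members differed in how they varied across myogenic states. Relative to MuSC-like cells *Rpl41* was the highest of the core genes in cycling, differentiating and DMD-enriched-like cells. In cycling cells it was at 4141 CPM in B10 against 7969.8 in *mdx*, and 5231 in DBA against 7859 in D2-*mdx*, against 3305, 3933, 3365 and 3913 CPM in MuSC-like cells, a mean log2 ratio of 0.75 with 0.33 to 1.02 over the libraries. It was at 0.51 (0.35 to 0.63) in differentiating cells, 0.53 (0.23 to 0.79) in DMD-enriched-like cells and 0.44 (0.14 to 0.81) in the cells led by *Esm1* and *Fosl1*. Here and below, parentheses after a ratio to MuSC-like cells give the lowest and highest library, not a counting interval. Within these states too the dystrophic libraries lay above their controls. B10 and DBA have only 15 and 18 DMD-enriched-like cells and 22 and 38 cycling cells.

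*Rpl15* was at 0.44 (0.30 to 0.51) in differentiating cells and 0.28 (-0.10 to 0.51) in DMD-enriched-like cells, where *Rpl10a* followed with 0.22 (-0.0012 to 0.45). *Rpl27* was at 0.38 (-0.03 to 0.61) in cycling cells and *Rps6* at 0.40 (0.12 to 0.72) in the *Esm1*-led cells. Other members lay lower than in MuSC-like cells. *Rps27* was at -0.42 (-0.49 to -0.38) in cycling cells and -0.22 (-0.24 to -0.16) in differentiating cells. *Rps21*, a small subunit protein that takes part in its maturation, was at -0.36 (-0.42 to -0.27) in cycling, -0.17 (-0.26 to -0.13) in differentiating, -0.20 (-0.23 to -0.15) in DMD-enriched-like and -0.18 (-0.36 to -0.07) in *Esm1*-led cells. *Rpl9* was at -0.30 (-0.33 to -0.27) in cycling and -0.15 (-0.20 to -0.10) in DMD-enriched-like cells, where *Rpl13* had -0.12 (-0.23 to -0.07). These genes lay below MuSC-like cells in each of the 4 libraries. The lowest in the *Esm1*-led cells also included *Rpl10* (-0.18) and *Rps4x* (-0.11), and *Rpl10* had -0.05 in differentiating cells. In the interferon-induced, immunomyoblast-like cells the core genes hardly moved, from 0.11 for *Rpl27* and 0.10 for *Rpl41* to -0.12 for *Rpl9*. Of the other members, *Rps27l* was at 0.21 and *Rpl6l* at -0.21 there. Core genes in the *Hhip*-led cells ranged from 0.14 for *Rpl41* to -0.18 for *Rps23*.

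**Figure D5:**
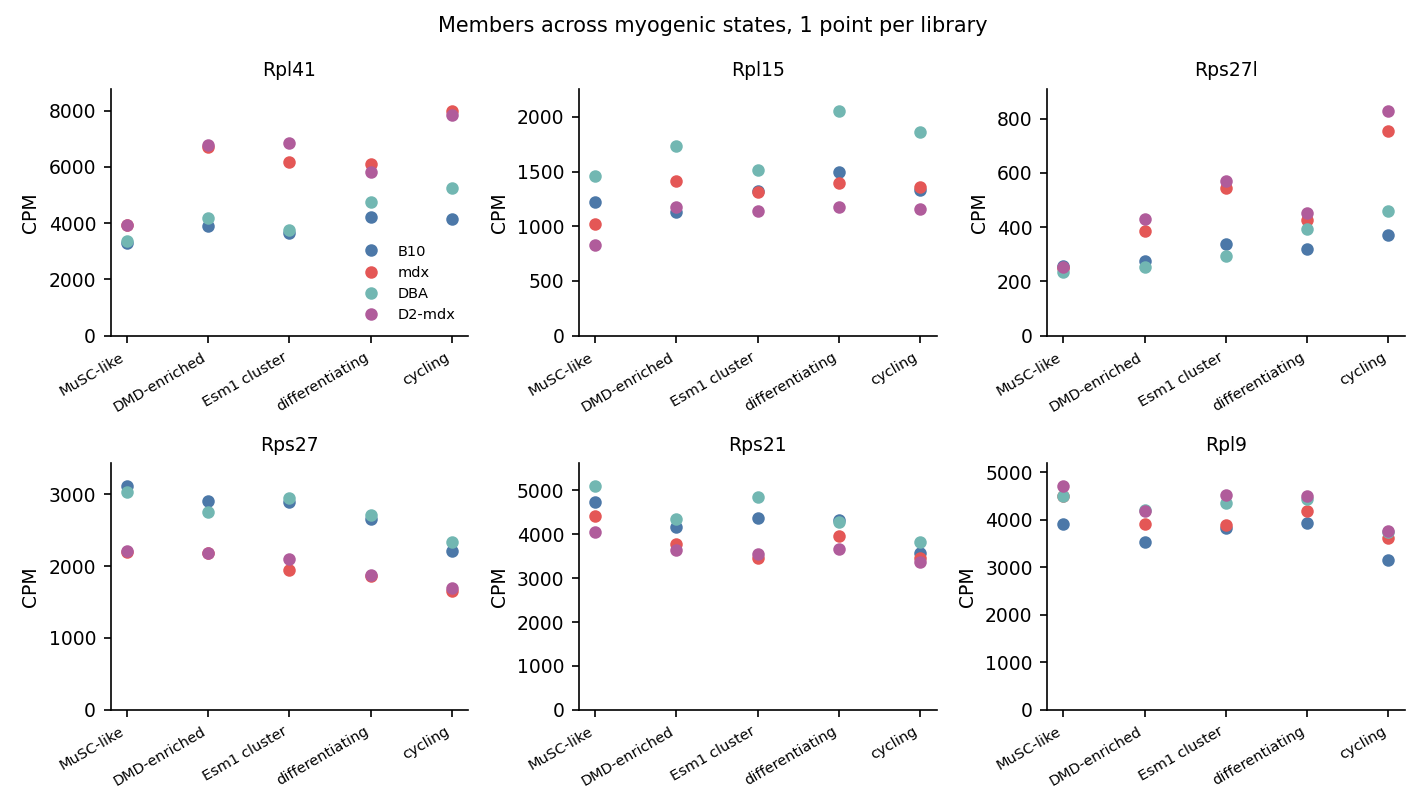
Points give the CPM of 6 members in 5 myogenic states, 1 point per library, with each axis from 0. *Rpl41* and *Rps27l* lie higher in the progenitor states than in MuSC-like cells, *Rpl15* lies between 1181 and 2051 CPM in differentiating cells, and *Rps27* and *Rpl9* lie lowest in cycling cells in every library.

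Of the 10 other members, 7 had at least 10 CPM in every library. *Rps27l* (chromosome 9, 66946086 to 66949516, plus strand), the paralog of *Rps27* and a target of p53, was at 266.9 CPM in B10 against 358.2 in *mdx*, and 251.5 in DBA against 419.7 in D2-*mdx*. Its log2 ratios of 0.42 (0.39 to 0.46) and 0.74 (0.70 to 0.78) stood opposite to those of *Rps27*, of -0.54 and -0.52. In cycling cells *Rps27l* was at 369.7, 755.3, 458.3 and 826.9 CPM against 255.6, 247.9, 235 and 252.3 CPM in MuSC-like cells, a mean log2 ratio of 1.21 (0.54 to 1.71 over the libraries). *Rps27* was at 2215, 1654, 2335 and 1694 CPM there, against 3118, 2199, 3032 and 2215 CPM in MuSC-like cells. In MuSC-like cells the libraries hardly differed in *Rps27l*, whereas in cycling cells *mdx* and D2-*mdx* lay far above their controls. B10 and DBA have only 22 and 38 cycling cells.

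*Rpl36al*, the paralog of *Rpl36a*, was at 474, 679.6, 524.3 and 755 CPM, with log2 ratios of 0.52 and 0.53, and *Rpl22l1*, the paralog of *Rpl22*, at 905.2, 1133, 1077 and 1234 CPM, with 0.32 and 0.20. *Rps19bp1* was at 36.6, 47.4, 39.5 and 51.3 CPM, with 0.37 and 0.38, and 1.08 (0.43 to 1.71 over the libraries) above MuSC-like cells in the *Esm1*-led cells. Within MuSC-like cells it was at 34.8, 35.0, 36.5 and 32.6 CPM, not higher in D2-*mdx* than in DBA and nearly level between B10 and *mdx*. *Rpl36al*, *Rps19bp1*, *Rps27l* and *Rpl6l* (below) were thus called higher in both comparisons, where 17.3% of all genes were. *Rpl22l1* was called higher in *mdx* over B10 only, where 22.4% of all genes were. In MuSC-like cells alone *Rpl36al* was at 458.3, 549.7, 499.6 and 602.5 CPM and *Rpl22l1* at 881.6, 961.2, 1059 and 1055 CPM. Neither gene was past the fold there in either comparison. *Rpl7l1*, a nucleolar relative of *Rpl7*, was at 87.8, 87.8, 97.9 and 90.04 CPM and differed little between libraries, but it too lay above MuSC-like cells in the *Esm1*-led cells, by 0.69 (0.31 to 1.11). *Rps27rt*, a retrogene of *Rps27*, was at 122.6, 76.7, 122 and 92.3 CPM and followed *Rps27* in direction, with -0.68 and -0.40. *Rpl6l*, which is annotated as a processed pseudogene, was at 52.0, 81.9, 23.2 and 89.9 CPM, with 0.66 and 1.95. It was lowest in DBA, by a log2 ratio of -1.16 to B10, and is named here after its values were seen. Counts of these last genes are uncertain, since reads may be split with the core gene. *Rpl3l*, the paralog of *Rpl3* in adult muscle fibres, stood below 1 CPM in every library, as did *Rpl39l*, and *Rpl10l*, known from the testis, had 0 UMIs, where a count of 0 allows up to 3.

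The other genes of translation did not move as 1 group with the cytosolic ribosome. Genes of the mitochondrial ribosome, which translates the mRNAs of the organelle, took 0.404% of UMIs in B10 against 0.516% in *mdx*, and 0.420% in DBA against 0.593% in D2-*mdx*. Of the 75 with at least 10 CPM, 40 were higher (53.3%, where 22.4% of all genes were) and 1 lower in *mdx* over B10, with a median of 0.37. In D2-*mdx* over DBA 59 were higher (78.7%, where 24.9% of all genes were) and 0 lower, with a median of 0.46. Their summed log2 ratios were 0.35 (0.34 to 0.36) and 0.50 (0.49 to 0.51) over myogenic cells, but 0.08 (0.07 to 0.09) and 0.18 (0.16 to 0.19) within MuSC-like cells. All genes had medians of -0.03 and -0.07, and 27.8% and 32.6% of them were lower. *Mrpl34* (0.84) and *Mrpl38* (0.78) led the first comparison, with *Mrps28* (-0.35) and *Mrps25* (-0.05) at the end, and *Mrps6* (1.14) and *Mrpl38* (1.12) the second, with *Mrpl48* (-0.13) and *Mrps25* (0.08) at the end. In both comparisons a larger share of these genes than of the core cytosolic ones was higher.

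A further list held 19 genes taken to have mRNAs that start with a pyrimidine tract, which was not checked here. Most are genes of translation, but *Vim*, *Npm1* and *Hnrnpa1* are not part of its machinery. Of the 19, 9 were higher and 2 lower in *mdx* over B10 and 9 higher and 1 lower in D2-*mdx* over DBA, with medians of 0.29 and 0.21. In each comparison 47.4% were thus higher, where 22.4% and 24.9% of all genes were. Of all genes 27.8% and 32.6% were lower. *Vim* (2.17 and 2.70), which encodes an intermediate filament of activated cells, and *Npm1* (0.79 and 0.84), a nucleolar chaperone, were the highest. *Hnrnpa1*, a splicing regulator, had -0.46 in *mdx* over B10, and *Eef1g*, a subunit of an elongation factor, -0.10 in D2-*mdx* over DBA. *Fau*, which encodes a small subunit protein fused to a ubiquitin-like one, was at 2530.1, 3327, 2964 and 3279 CPM.

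Genes of ribosome assembly make and process ribosomal RNA. Of 31 with enough UMIs, 3 were higher and 5 lower in *mdx* over B10 and 6 higher and 7 lower in D2-*mdx* over DBA, with medians of -0.03 in both. The shares higher (9.68% and 19.4%) and lower (16.1% and 22.6%) lay below those of all genes. *Nhp2* (0.55 and 0.73), a protein of the RNAs that guide pseudouridine formation, and *Eif6* (0.49 and 0.89), which keeps the large subunit from joining early, were the highest. *Polr1a* (-0.62 and -0.72), the largest subunit of RNA polymerase I, was the lowest in both, followed by *Nop56* (-0.46) and *Tsr1* (-0.47). The list of assembly genes took 0.605% of UMIs in the *Esm1*-led cells, as a mean over libraries, against 0.229% to 0.423% in the other 8 states.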

How the data were processed

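Satellite cells of 4 strains were profiled as 1 library each. The deposited matrices hold raw UMI counts per gene and cell barcode, which the authors made with Cell Ranger 3.0.1 on mm10, and no normalized value was used. Cells were kept between 1000 and 5000 genes and up to 8% of mitochondrial UMIs, as in the study, and the expected number of doublets was removed by Scrublet score in scanpy 1.11.5 (181, 356, 91 and 293 cells of B10, *mdx*, DBA and D2-*mdx*). Clusters were rebuilt in Seurat 5.3.0 (R 4.3.3) with integration, at resolutions of 0.1 for all and 0.2 for myogenic cells, with the ribosomal protein genes left out of the features, and were named by markers. A mixed cluster of 528 cells was split again and its myogenic cells were returned after inspection, and 61 cells led by *Cd74* were left out.

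Within each library the UMIs of a gene were added up across myogenic cells and divided by their total (39883374, 40245771, 30136920 and 34816736). Ratios between libraries are log2 ratios of CPM without a pseudocount, for genes that reached 10 CPM in one or both libraries compared. Ratios of a gene in a state to MuSC-like cells used a small pseudocount. They are means over the libraries, given with their range. With 1 library per group no test was run. Intervals are exact (Clopper-Pearson for shares, the binomial share of the pair for ratios) and cover counting error only. Counts are of 3′ ends and were not scaled by length. Copies were found with blastn 2.17.0 (at least 90% identity over at least 60% of the shorter sequence) in GENCODE M21 transcripts on GRCm38, where 27645 of 27998 gene IDs and all 87 members matched.

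Named genes are the 4 genes with copies, the 5 highest and 5 lowest core genes of each comparison, the 3 highest and 3 lowest of each progenitor state, the 3 with the most and the 3 with the fewest UMIs, the non-core members, and the 2 highest and 2 lowest of each other list, with the stalk and 5S genes added. Some genes that this rule names are not reported here. The members and lists were chosen with earlier results of these data known. TMM sizes came from edgeR 4.0.16 and size factors from DESeq2 1.42.0. Scripts were tested on simulated data. Protein sequences and DBA/2 genome sequence were not used here.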

Additional observations from a re-analysis of the deposited data

Results flagged for a closer look

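*Rpl29* and *Rps2* were called in opposite directions in the C57 and the DBA background. For *Rpl29* the log2 ratio was 0.39 in *mdx* over B10 and -0.52 in D2-*mdx* over DBA, a difference of -0.919 between the comparisons. With its copies added the ratios were 0.39 and -0.29, and the lower call in D2-*mdx* was lost. For *Rps2* they were 0.40 and -0.54, a difference of -0.932, and its copies changed neither by more than 0.01. With 1 library per strain neither difference was tested.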

How the results depend on the processing

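No paired analysis was possible because each strain has 1 library and the labels give no replicate numbers, so leaving out a replicate was not possible either. Differences between libraries could not be set against differences between mice, and depth limits only the counting error, which is small for core genes. Shares are given below in the order B10, *mdx*, DBA and D2-*mdx*, ratios are log2, and the cause of each difference was not tested. For doubled doublet removal, all sorted cells, scaling by all other genes and added copies, the share of all genes called was not counted. Counts of core genes in those settings therefore cannot be set against all genes. With at most 5% mitochondrial UMIs the shares were 24.76%, 26.33%, 25.74% and 25.82%, the summed ratios 0.089 (*mdx* over B10), 0.0048 (D2-*mdx* over DBA), 0.056 (DBA over B10) and -0.028 (D2-*mdx* over *mdx*), the median of DBA over B10 0.061, and the shares of MuSC-like, cycling, differentiating and immunomyoblast-like cells 25.04%, 25.95%, 26.89% and 24.43%. With 2000 to 5000 genes the shares of B10, *mdx* and D2-*mdx* were 24.60%, 26.48% and 25.72%, the summed ratios 0.106 (*mdx* over B10), 0.061 (DBA over B10) and -0.042 (D2-*mdx* over *mdx*), and the medians -0.0088 (D2-*mdx* over DBA) and -0.0094 (D2-*mdx* over *mdx*). With double the doublets removed the shares of B10, *mdx* and DBA were 24.41%, 26.08% and 25.70%, the summed ratios 0.0011 (D2-*mdx* over DBA), 0.074 (DBA over B10) and -0.020 (D2-*mdx* over *mdx*), and 2 genes were higher in DBA over B10. In MuSC-like cells alone the shares were 24.36%, 24.92%, 25.57% and 24.59%, the summed ratios 0.033 (*mdx* over B10), -0.056 (D2-*mdx* over DBA) and -0.019 (D2-*mdx* over *mdx*), the medians 0.066 and -0.061 in the disease comparisons, with 4 genes higher and 12 lower in the first and 2 higher in the second. Over all sorted cells the shares were 23.92%, 23.31%, 23.19% and 22.92%, the summed ratios -0.037 (*mdx* over B10), -0.017 (D2-*mdx* over DBA) and -0.045 (DBA over B10), and the medians -0.048, -0.045 and -0.032, so that *mdx* and DBA then lay below B10. In that setting 3 genes were higher and 17 lower in *mdx* over B10 and 0 higher in DBA over B10. As a mean over cells the shares were 23.91%, 25.25%, 25.59% and 25.17%, with DBA the highest, and those of the states, in the order above, 24.62%, 25.32%, 26.40% and 23.88%.

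Scaled by the UMIs of all other genes, the summed ratios were 0.130 (*mdx* over B10), -0.032 (D2-*mdx* over *mdx*), 0.093 (DBA over B10) and the medians 0.14 (*mdx* over B10) and 0.10 (DBA over B10), with 3 genes higher and 1 lower in DBA over B10. TMM gave medians of 0.158 and 0.029 in the disease comparisons, with 3 genes lower in the first and 11 higher in the second. DESeq2 gave 0.161 and 0.059, with 3 lower and 17 higher, and a median of 0.039 in D2-*mdx* over *mdx*. With copies added, 3 genes were lower in D2-*mdx* over *mdx*, and 2 higher and 1 lower in DBA over B10. Of the 28 core genes with a copy, 2 were then lower in *mdx* over B10, where 3 were before. In D2-*mdx* over DBA 7 were lower, where 8 were before. With ribosomal protein genes allowed in the clustering, MuSC-like, cycling and immunomyoblast-like cells held 24.70%, 26.24% and 24.59%. Without integration MuSC-like, cycling and differentiating cells held 25.30%, 25.08% and 27.25%, so that cycling cells were then below MuSC-like cells, and no immunomyoblast-like cluster was found. At a resolution of 0.3, chosen after seeing the data, with each cluster assigned back to the coarser state that most of its cells had, the 4 states held 24.92%, 25.71%, 26.86% and 24.33%. Taken apart from the cells they were joined with, cycling cells held 24.82% and differentiating cells 27.30%, so that the former were then not above MuSC-like cells. Differentiating cells had the highest share of these 4 states in every setting. Of 200 values of single genes under other settings, 108 moved beyond their counting interval.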

Other observations

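Other copies of core genes also differed between libraries. *Rps12-ps3*, a copy of *Rps12*, had 7282, 9507, 4418 and 10399 UMIs in B10, *mdx*, DBA and D2-*mdx*, lowest in DBA. *Rps18-ps3* had 577 UMIs in B10 and 492 in *mdx*, against 2140 in DBA and 2645 in D2-*mdx*, following *Gm10260* in order of background. *Gm10076*, a copy of *Rpl41*, had 2199, 3263, 7332 and 3265 UMIs, highest in DBA, and with it the log2 ratio of *Rpl41* in D2-*mdx* over DBA went from 0.65 to 0.57. *Rps2-ps6* had 48, 61, 811 and 69 UMIs, and thus stood out in DBA alone. *Gm9493*, a copy of *Rps7*, had 1417, 2287, 416 and 1954 UMIs and was lowest in DBA. For the 24 core genes with copies other than the 4 described above, adding the copies moved no ratio by more than 0.1.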
